A study of Glycine max with 6 samples.

Results

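BAHD acyltransferases are plant enzymes that move an acyl group from a coenzyme A thioester to an alcohol or an amine. Their donors include coumaroyl-, caffeoyl-, feruloyl-, benzoyl- and malonyl-CoA, and their acceptors include shikimate, spermidine, flavonoid glucosides, benzyl alcohol and hydroxylated fatty acids. In leaves the family is known for steps towards lignin, cuticle polyesters, malonylated isoflavones, volatile benzoates and phenolic amides of polyamines. Members were taken from the deposited protein descriptions, by words such as hydroxycinnamoyl, malonyltransferase, benzoyltransferase, vinorine synthase, omega-hydroxypalmitate and BAHD. This gave 70 of 36827 genes. The rule uses no expression value, though it was chosen with earlier results of these data known.

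The 6 RNA-seq libraries came from trifoliolate leaves of soybean (Glycine max) 30 days after germination. Of these, 3 were labelled DN50, with wild type as the genotype, and 3 were labelled GmRAV1-ox, with GmRAV1 as the genotype. The labels name no promoter, construct or transgenic line for GmRAV1-ox, and its suffix is not spelled out there. Replicates carry numbers, but no label ties them to different plants, so each p-value reflects only how these samples spread, which may be technical.

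Library totals lay between 7208496 and 7684540 estimated counts. Transcripts of the gene in the genotype label were checked first: 4 RAV genes were listed, of which the descriptions name none as GmRAV1, and none of the 3 that could be tested was higher in the GmRAV1-ox libraries (folds of 0.834, 0.967 and 0.975, adjusted p from 0.673 to 0.961 by edgeR's quasi-likelihood test). All 4 overlapped between the groups, at 20.3 to 30.6 CPM (counts scaled to library size) in DN50 and 17.8 to 31.9 in GmRAV1-ox for Glyma01g22260.1, 23.3 to 47.6 and 20.9 to 39 for Glyma02g11060.1, 4.16 to 9.63 and 5.74 to 6.16 for Glyma10g34760.1, and 0.154 to 0.569 and 0.289 to 2.75 for Glyma20g32730.1, which had too few counts for the test (8 over the DN50 libraries against 37). Without GmRAV1-ox replicate 3, Glyma20g32730.1 could be tested and was 5.43-fold higher (adjusted p 0.0273 by edgeR, 0.0273 to 0.479 over the alternatives). With all 6 libraries no RAV transcript passed, so directions below rest on the labels. GmRAV1-ox replicate 3 stood apart from its group, at -16.5 on the first principal component where GmRAV1-ox replicates 1 and 2 stood at 71.6 and 100.1 and the DN50 libraries between -81.0 and -10.3. For that reason, seen in these same data, results are given with and without it. Leaving out the library of a group that lies nearest to the other group favours calls, so that fit is no separate support. Leaf markers were abundant: the 30 genes for the RuBisCO small subunit and chlorophyll a/b-binding proteins summed to 105431 to 143731 FPKM in DN50 and 104970 to 145211 in GmRAV1-ox. The seed marker words, glycinin and beta-conglycinin, matched 1 gene, which reached at most 0.13 FPKM. Both genes found with the nodule marker word are leghemoglobin reductases and not leghemoglobin, and no gene matched the Casparian strip marker of roots.

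The label of the family fitted 68 of the 70 members. The other pair, Glyma18g06500.1 and Glyma11g29490.1, is described only as malonyltransferase, but its deposited KEGG entry is K00645, the acyl carrier protein malonyltransferase of fatty acid synthesis, which is not a BAHD enzyme. Both stay in the counts under the rule. KEGG placed 34 members under K13065 (shikimate O-hydroxycinnamoyltransferase), 23 under K15400 (omega-hydroxypalmitate O-feruloyl transferase) and 11 under K14329, so its entries were coarser than the descriptions used below. The best-hit protein of 55 members was found, with its version, in the RefSeq gene table of assembly Glycine_max_v4.0, which supplied the symbols IF7MaT and IMAT1 used below.

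By role, the members were 16 spermidine hydroxycinnamoyl transferase-like genes, 7 shikimate O-hydroxycinnamoyltransferases, 4 DCR-like genes, 14 omega-hydroxypalmitate O-feruloyl transferases, 13 malonyltransferases, 13 benzoyltransferases and 3 vinorine synthase-like genes. Levels between genes are compared as FPKM, which is per length. In the leaf, 20 members had a mean of at least 10 FPKM over the 6 libraries, 19 lay from 1 to under 10, and 31 lay under 1. All 70 had counts in at least 1 library and 48 in all 6. The 3 most abundant were the DCR-like Glyma09g24900.1 at 104 FPKM, the spermidine hydroxycinnamoyl transferase-like Glyma18g13840.1 at 79.4 and the K00645 gene Glyma18g06500.1 at 61.1. Together they made up 36.7% of the members' summed FPKM, and the top 10 members made up 66.8%. The vinorine synthase-like genes, named after an alkaloid enzyme of Rauvolfia, held 0.0519% of it. Their highest, Glyma03g03340.1, averaged 0.197 FPKM, and the next, Glyma07g00260.1, averaged 0.075.

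**Figure D1:**
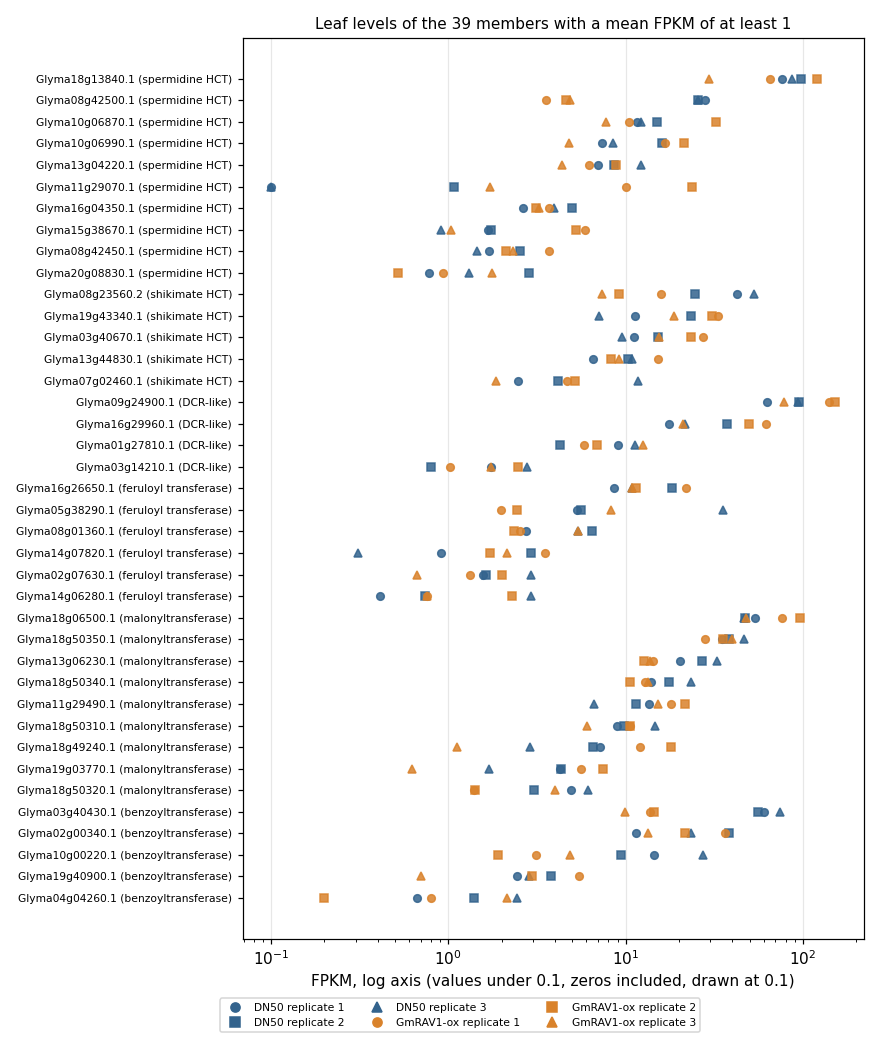
FPKM of the 39 members with a mean of at least 1 FPKM, 1 row per member grouped by role (HCT: hydroxycinnamoyl transferase), 1 point per library on a log axis. Glyma09g24900.1 lay furthest to the right at a mean of 104 FPKM, and the orange points of Glyma08g42500.1, Glyma03g40430.1 and Glyma13g06230.1 lay to the left of their blue points.

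The question put to the family was which members differed between the groups. The genes that passed the test as lower were 1 spermidine hydroxycinnamoyl transferase-like gene, 1 benzyl alcohol O-benzoyltransferase-like gene and the isoflavone malonyltransferase IF7MaT. With all 6 libraries no member passed as higher. Of the 70 members, 37 had enough counts to be tested, and 3 of the 37 (8.11%) passed an adjusted p of 0.05 in the quasi-likelihood F test of edgeR, adjusted after Benjamini and Hochberg over all genes. Over all 26272 genes tested, 0.7% passed, made up of 0.579% lower and 0.122% higher. At an unadjusted p under 0.05 stood 9 members (24.3%), 7 lower and 2 higher, against 21.3% of all genes (10.7% lower and 10.6% higher). The libraries of the groups did not overlap in 10 members (27.0%), 8 lower and 2 higher, against 26.0% of all genes (13.1% lower and 12.9% higher). By both of these looser measures the members' share was near that of all genes. The median log2 fold change of the tested members was -0.20, against 0.01 for all genes, with 21 members below 0 and 16 above. Without scaling factors the members' median was -0.02 and that of all genes 0.20.

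Without GmRAV1-ox replicate 3, 9 members were lower and 3 higher of 39 tested (30.8%), where 18.3% of all genes passed (9.66% lower and 8.62% higher). The 3 members called with all 6 libraries were among these 9. With 1 of 4 other libraries left out (DN50 replicate 1 or 3, or GmRAV1-ox replicate 1 or 2), edgeR called 0 members and 0 of all genes. At an unadjusted p under 0.05 stood, in this order, 10, 7, 7 and 11 members, beside 3778, 3509, 3888 and 3290 of all genes. In these 4 fits the adjusted p of Glyma08g42500.1 and of Glyma03g40430.1 lay between 0.0924 and 0.115, while over all alternatives it ranged from 1.24e-18 and from 3.42e-26 up to 0.115.

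**Figure D2:**
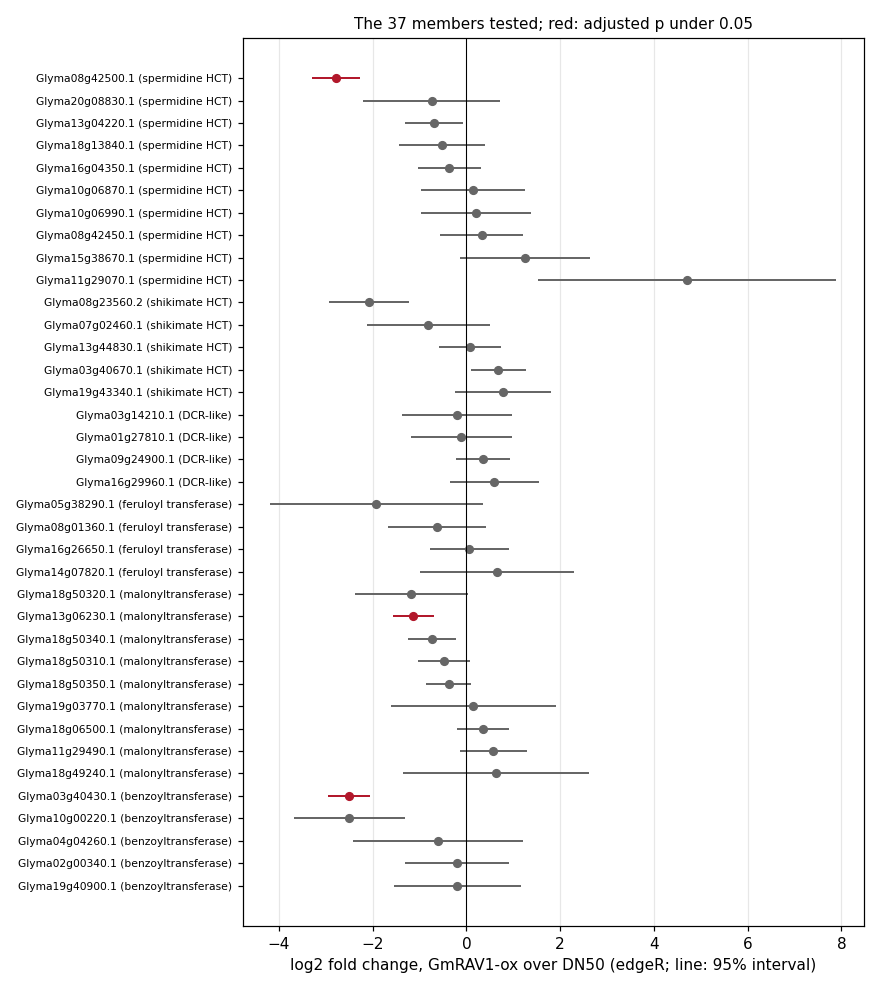
Log2 fold change of GmRAV1-ox over DN50 for the 37 members tested, with 95% intervals from edgeR, grouped by role. The 3 members in red passed the adjusted p of 0.05, all to the left of 0, and most of the other intervals cross 0.

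Spermidine hydroxycinnamoyl transferases join hydroxycinnamoyl groups to the polyamine spermidine, and the Arabidopsis enzyme of this name acts in the anther tapetum. Glyma08g42500.1 of this class had 43.4, 35.3 and 33.1 CPM in DN50 replicates 1 to 3 and 4.36, 5.14 and 6.64 in GmRAV1-ox replicates 1 to 3. Each of the GmRAV1-ox libraries, replicate 3 included, lay below each DN50 library. The gene fell from 37.3 ± 5.43 to 5.38 ± 1.16 CPM (SD, n = 3), 6.92-fold (95% interval 4.93 to 9.73, adjusted p 0.0118 by edgeR). Over the 6 fits that left out 1 library the fall ranged from 6.33- to 7.91-fold.

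Glyma08g42500.1 closes a run of 4 spermidine hydroxycinnamoyl transferase-like genes on chromosome 8, whose identifiers lie within 100 numbers of their neighbours. Its DN50 mean was 26.5 FPKM, against 1.90 FPKM for Glyma08g42450.1, the next most abundant of the run. Glyma08g42450.1 stood at 2.82 ± 0.861 and 3.53 ± 1.13 CPM in the same order of groups, with a fold of 1.25 (0.686 to 2.28). Glyma08g42440.1 had 10 counts over the DN50 libraries against 27 over the GmRAV1-ox libraries, and Glyma08g42490.1 had 8 against 20, too few for the test. The log2 ratio of the CPM of Glyma08g42500.1 to that of Glyma08g42450.1 was 3.97, 3.25 and 4.06 in DN50 replicates 1 to 3 and -0.12, 1.03 and 1.00 in GmRAV1-ox replicates 1 to 3. The difference of -3.13 had an exact 2-sided permutation p of 0.1, the smallest that 3 against 3 libraries allow. The ratio was 1 of 3 computed between members, each chosen after the values were seen, and all 3 had this p, raw and adjusted.

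**Figure D3:**
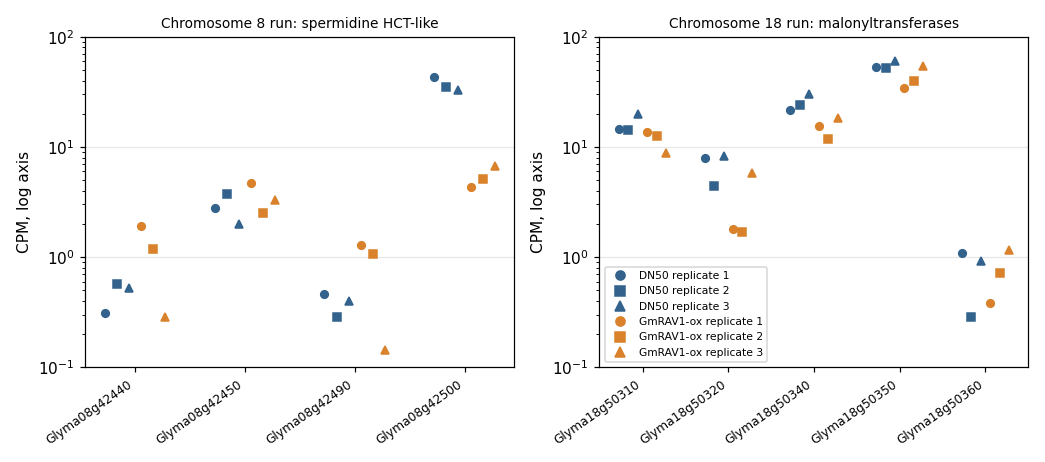
CPM on a log axis, 1 point per library, for the 4 neighbouring spermidine hydroxycinnamoyl transferase-like genes of chromosome 8 (left) and the 5 neighbouring malonyltransferases of chromosome 18 (right). Only Glyma08g42500.1 among these 9 passed the test, at 33.1 to 43.4 CPM in DN50 (blue) and 4.36 to 6.64 in GmRAV1-ox (orange).

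The most abundant gene of the class, Glyma18g13840.1, did not pass the test. It had 117, 133 and 111 CPM in DN50 and 79.0, 133 and 40.0 in GmRAV1-ox, so the groups overlapped through GmRAV1-ox replicate 2 (fold 0.699, 0.374 to 1.31, adjusted p 0.465 by edgeR). Glyma13g04220.1 stood at 10.6 ± 2.10 and 6.48 ± 1.68 CPM, without overlap and at an adjusted p of 0.184 by edgeR. Counts that were not whole numbers, a sign of reads divided between gene models, occurred in 10 members. These formed 5 pairs whose summed counts were whole (within 0.05) in every library. Among them, the spermidine genes Glyma10g06870.1 and Glyma10g06990.1 had a fold of 1.12 (0.552 to 2.28) when summed.

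Another such pair holds the member with the largest estimate. Glyma11g29070.1 had 0, 1.56 and 0 CPM in DN50 replicates 1 to 3 and 12.6, 27.0 and 2.31 in GmRAV1-ox replicates 1 to 3. The groups did not overlap, but the GmRAV1-ox libraries differed widely among themselves, and the log2 fold change of 4.71 (SE 1.31) had an adjusted p of 0.135 by edgeR. It passed without GmRAV1-ox replicate 3, at an adjusted p of 0.0162 by edgeR, within a range of 0.0085 to 0.362 over all alternatives. Its partner Glyma11g29060.1 shares its best-hit protein, and the division of reads between them is uncertain. Summed, the pair had 4, 15 and 1.96 counts in DN50 and 100, 226 and 39 in GmRAV1-ox, and the summed fold was 15.0 (3.95 to 57.1, adjusted p 0.0908 by edgeR). Glyma15g38670.1 passed in that reduced fit alone among the alternatives, 3.17-fold higher (adjusted p 0.0171 by edgeR, 0.0171 to 0.564 over the alternatives). With all libraries its groups overlapped, at 2.62, 2.42 and 1.19 CPM in DN50 and 7.31, 5.98 and 1.44 in GmRAV1-ox.

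Benzyl alcohol O-benzoyltransferases make volatile benzoate esters, as known from flowers of Clarkia and Petunia. Glyma03g40430.1 of this class, the fourth most abundant member at 38.0 FPKM, had 95.4, 78.8 and 98.7 CPM in DN50 replicates 1 to 3 and 17.3, 16.7 and 13.9 in GmRAV1-ox replicates 1 to 3. GmRAV1-ox replicate 3 was the lowest of all 6 libraries. The gene fell from 91.0 ± 10.7 to 16.0 ± 1.85 CPM (SD, n = 3), 5.69-fold (4.26 to 7.59, adjusted p 0.0118 by edgeR), and by 5.41- to 6.13-fold with 1 library left out. Its neighbour Glyma03g40420.1, also a benzyl alcohol benzoyltransferase by description, had 2 counts over the DN50 libraries against 10 over the GmRAV1-ox libraries and was not tested.

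A further gene of this description, Glyma10g00220.1, showed an estimate of like size with a wider spread. It had 22.5, 12.9 and 35.2 CPM in DN50 and 3.85, 2.15 and 6.64 in GmRAV1-ox, without overlap (fold 0.177, 0.0797 to 0.394). Its adjusted p was 0.0778 by edgeR with all libraries and 0.00796 without GmRAV1-ox replicate 3, and ranged from 6.86e-05 to 0.283 over all alternatives. Glyma02g00340.1, with the same description, stood at 33.9 ± 17.9 and 29.4 ± 13.8 CPM. Its fold of 0.867 (0.408 to 1.84) lay on the other side of 1 by limma and in 2 of the fits that left out 1 library. The log2 ratio of Glyma03g40430.1 to Glyma02g00340.1 was 1.56 ± 0.933 in DN50 and -0.78 ± 0.516 in GmRAV1-ox (SD, n = 3, exact permutation p = 0.1). The summed FPKM of the 13 benzoyltransferases was 91.9 to 133 in DN50 and 33.2 to 61.2 in GmRAV1-ox, without overlap. The other 11 members, without Glyma03g40430.1 and Glyma10g00220.1, summed to 17.4 to 45.5 and 18.4 to 44.2 FPKM, which overlapped. Of the N-hydroxycinnamoyl/benzoyltransferases, named after a carnation enzyme that makes anthranilate phytoalexins, 4 form a run on chromosome 4. Glyma08g00600.1 of this description lies on chromosome 8. Among all of these only Glyma04g04260.1 could be tested, at 2.12 ± 1.12 and 1.43 ± 1.44 CPM.

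Malonyltransferases attach malonyl groups to flavonoid and phenolic glucosides, a step tied to storage in the vacuole. IF7MaT (Glyma13g06230.1), described as acting on isoflavone glucosides, had 32.3, 38.3 and 43.5 CPM in DN50 replicates 1 to 3 and 18.1, 14.7 and 19.2 in GmRAV1-ox replicates 1 to 3. Again no GmRAV1-ox library reached the lowest DN50 library. IF7MaT fell from 38.0 ± 5.61 to 17.3 ± 2.34 CPM (SD, n = 3), 2.20-fold (1.64 to 2.93, adjusted p 0.0450 by edgeR). This call was lost without scaling factors (adjusted p 0.0751), by limma on the FPKM values (0.0946) and in 5 of the 6 fits that left out 1 library. It held without GmRAV1-ox replicate 3 (adjusted p 0.00571). Over all alternatives the adjusted p ranged from 0.000246 to 0.237, and the estimates with 1 library left out were 2.04- to 2.38-fold lower.

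On chromosome 18, 5 malonyltransferases described as phenolic glucoside malonyltransferases, after an Arabidopsis enzyme, follow each other. None passed with all libraries, and all 4 that could be tested had estimates below 0, as had 12853 of all 26272 genes tested. Outside this run, Glyma18g49240.1 and Glyma19g03770.1 of the same description had estimates above 0. Their folds were 1.55 (0.399 to 6.01) and 1.11 (0.334 to 3.68). Glyma18g50350.1, the most abundant at 37.2 FPKM, stood at 55.3 ± 4.17 and 42.6 ± 10.3 CPM. Glyma18g50340.1 had 21.4, 24.0 and 30.1 CPM in DN50 and 15.5, 11.8 and 18.2 in GmRAV1-ox, without overlap (fold 0.602, 0.429 to 0.846, adjusted p 0.128 by edgeR). Glyma18g50310.1 also did not overlap, at 16.3 ± 3.25 and 11.7 ± 2.57. IMAT1 (Glyma18g50320.1) had 8.0, 4.41 and 8.31 CPM in DN50 and 1.80, 1.67 and 5.78 in GmRAV1-ox. GmRAV1-ox replicate 3 lay inside the DN50 range there, and the adjusted p was 0.237 by edgeR with it and 0.00988 without it. Glyma18g50340.1 (0.0224) and Glyma18g50350.1 (0.0445) also passed without it, and for these 3 genes no other alternative gave an adjusted p under 0.05, the highest being 0.540, 0.371 and 0.629. The K00645 pair shares reads and had a summed fold of 1.31 (0.910 to 1.90). The summed FPKM of the 13 malonyltransferases overlapped, at 163 to 184 in DN50 and 144 to 215 in GmRAV1-ox. This sum includes the K00645 pair, so it does not describe the BAHD malonyltransferases alone. Of the pair, Glyma18g06500.1 averaged 49.1 FPKM in DN50 and 73.1 in GmRAV1-ox, and Glyma11g29490.1 averaged 10.5 and 18.2.

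**Figure D4:**
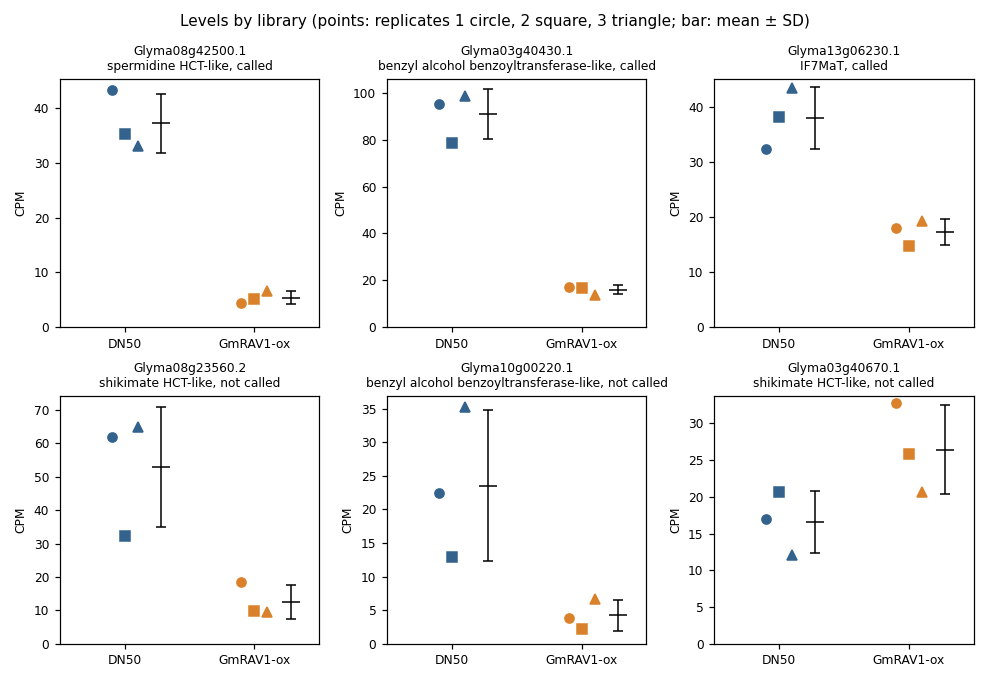
CPM by library for the 3 members that passed the test (top) and 3 others picked from the 10 members with the smallest p (bottom), with mean ± SD of 3 libraries per group. Glyma18g50340.1 and Glyma11g29070.1, which had smaller p than Glyma03g40670.1, are not drawn. In all 6 panels the groups do not overlap. In the top row GmRAV1-ox replicate 3 (triangle) lies with its own group, a position that passing the test with it included favours.

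Shikimate O-hydroxycinnamoyltransferase (HCT) makes the coumaroyl shikimate on which the lignin pathway's ring hydroxylation acts. The 5 tested HCT genes had estimates on both sides of 0. Glyma08g23560.2, the most abundant at 25.4 FPKM, had 61.7, 32.2 and 64.9 CPM in DN50 and 18.3, 9.81 and 9.53 in GmRAV1-ox, without overlap. Its fold was 0.238 (0.133 to 0.424) and its adjusted p 0.0563 by edgeR, just short of the threshold. It was called in 5 of 16 alternatives, in which the adjusted p ranged from 1.05e-05 to 0.261. Glyma03g40670.1 lay the other way, at 16.9, 20.6 and 12.1 CPM in DN50 and 32.7, 25.8 and 20.6 in GmRAV1-ox. Its groups did not overlap, but the closest libraries, DN50 replicate 2 and GmRAV1-ox replicate 3, stood at nearly the same level, and the fold of 1.60 (1.08 to 2.36) had an adjusted p of 0.179 by edgeR. Without GmRAV1-ox replicate 3 it was 0.0435, and it ranged up to 0.441 over the alternatives. Glyma19g43340.1 stood at 18.6 ± 11.1 and 32.0 ± 7.16 CPM and Glyma13g44830.1 at 12.4 ± 2.18 and 13.1 ± 4.63, the latter with an estimate whose sign changed in some of the alternatives. The log2 ratio of Glyma08g23560.2 to Glyma13g44830.1 was 2.05 ± 0.729 in DN50 and -0.07 ± 0.250 in GmRAV1-ox (SD, n = 3, exact permutation p = 0.1). Glyma15g00490.1, whose best hit is the same protein as that of Glyma13g44830.1, averaged 0.0217 FPKM.

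DCR (DEFECTIVE IN CUTICULAR RIDGES) and the omega-hydroxypalmitate O-feruloyl transferases act in the surface and barrier polyesters cutin and suberin in Arabidopsis. The leading DCR-like genes were the most abundant of this branch and neither passed the test. Glyma09g24900.1 had 96.5, 129 and 120 CPM in DN50 and 169, 169 and 105 in GmRAV1-ox (fold 1.28, 0.876 to 1.88). Glyma16g29960.1 had 26.8, 50.8 and 27.6 CPM in DN50 and 74.6, 55.6 and 28.3 in GmRAV1-ox (fold 1.51, 0.794 to 2.86). In each, GmRAV1-ox replicates 1 and 2 lay above all DN50 libraries and GmRAV1-ox replicate 3 lay among them. The pair shares reads, and summed it had a fold of 1.34 (0.865 to 2.06). Epidermal markers, 13 non-specific lipid-transfer protein genes, summed to 283 to 520 FPKM in DN50 and 332 to 594 in GmRAV1-ox. For the 6 of them with enough counts, the median log2 difference from the DN50 mean was 0.69, 0.30 and -0.03 in GmRAV1-ox replicates 1 to 3. It was 0.68 in DN50 replicate 2, and the part of these markers in the DCR-like levels was not tested. In such bulk leaf samples, fewer cells of a type and less RNA per cell cannot be told apart.

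Of the 14 feruloyl transferases, 4 could be tested and 0 passed by edgeR, with 0 at an unadjusted p under 0.05. DESeq2 and limma also called none of them, while Glyma08g01360.1 was called without GmRAV1-ox replicate 3 (adjusted p 0.0498 by edgeR, 0.0498 to 0.784 over the alternatives). The most abundant, Glyma16g26650.1, stood at 17.6 ± 6.69 and 18.4 ± 7.67 CPM, a fold of 1.05 (0.592 to 1.85) whose side of 1 changed in 3 of the fits that left out 1 library. Glyma05g38290.1 was dominated by DN50 replicate 3, with 7.85, 7.40 and 43.5 CPM in DN50 and 2.31, 2.63 and 10.8 in GmRAV1-ox (adjusted p 0.291 by edgeR).

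Across the family, GmRAV1-ox replicate 3 lay inside the DN50 range for 19 of the 37 tested members, against 6 for GmRAV1-ox replicate 1 and 6 for replicate 2. These are 51.4%, 16.2% and 16.2% of the members, beside 43.5%, 33.8% and 28.5% of all genes tested, so replicate 3 lay nearest to DN50 over all genes as well. In the 3 members that fell it lay below every DN50 library. These were called with that library included, which favours this position, so it is no separate support. Relative to the DN50 mean, the median log2 level of the tested members was -0.23, -0.31 and -0.24 in GmRAV1-ox replicates 1 to 3, and -0.04, 0.16 and -0.04 in DN50 replicates 1 to 3. The 30 leaf mesophyll marker genes had a median of -0.52, -0.94 and -0.18 in GmRAV1-ox replicates 1 to 3 and from -0.26 to 0.29 in DN50, and 28 of the 30 had estimates below 0 (median log2 fold change -0.60). None passed by edgeR (0 of 30), 5 (16.7%) had an unadjusted p under 0.05 against 21.3% of all genes, and 14 (46.7%) did not overlap between the groups, 13 of them lower, against 26.0% of all genes. Their part in the family's levels was not tested.

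Genes of pathways around these enzymes were counted in 6 pathway lists matched to descriptions. Besides genes that supply donors and acceptors, the lists hold later steps, polyamine breakdown, esterases and other acyltransferases. Their counts therefore do not measure donor and acceptor supply alone. Of 219 tested, 5 passed as lower and 0 as higher (2.28%, against 0.7% of all genes), and 30.6% had an unadjusted p under 0.05 against 21.3% of all genes. Their median log2 fold change was -0.13. With DN50 replicate 1 or 3 or GmRAV1-ox replicate 1 or 2 left out 0 of them were called, and without DN50 replicate 2 the number was 2. In phenylpropanoid entry, 2 of 24 tested genes fell, both 4-coumarate--CoA ligases, which make the coumaroyl-CoA used by HCT. Glyma17g07190.1 had 78.0, 69.0 and 130 CPM in DN50 and 25.1, 19.3 and 26.6 in GmRAV1-ox, 3.90-fold lower (2.52 to 6.04, adjusted p 0.0363 by edgeR). Glyma13g01080.1 went from 32.0 ± 2.93 to 12.9 ± 3.16, 2.48-fold lower (1.77 to 3.47, adjusted p 0.0460).

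In the hydroxycinnamate and monolignol steps 1 of 29 fell, the cinnamyl alcohol dehydrogenase Glyma20g26440.1, of the class that makes monolignols, from 44.5 ± 1.93 to 23.6 ± 1.70 CPM (1.89-fold, adjusted p 0.0441 by edgeR). In polyamine synthesis and breakdown 1 of 22 fell, the polyamine oxidase 2-like Glyma08g41570.1, of an enzyme class that oxidises spermidine and spermine. It had 239, 304 and 210 CPM in DN50 and 109, 85 and 92.7 in GmRAV1-ox (2.63-fold, adjusted p 0.0435). Among 69 tested esterases and other acyltransferases 1 fell, Glyma04g38690.1, which is SAG101-like and entered through the word carboxylesterase, though its Arabidopsis namesake is known for senescence and immune signalling (4.37-fold, adjusted p 0.0363). In all 5, no GmRAV1-ox library reached the DN50 range, which passing the test with these libraries favours.

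Of 44 flavonoid genes and 31 cutin and suberin genes tested, 0 passed by edgeR, with 10 (22.7%) and 11 (35.5%) at an unadjusted p under 0.05 against 21.3% of all genes. The isoflavone synthases Glyma07g32340.1 (24.5 ± 4.37 and 8.14 ± 4.24 CPM) and Glyma13g24200.1 (70.6 ± 17.7 and 23.5 ± 15.1), which make the isoflavone skeleton that IF7MaT products carry, had the smallest p of the flavonoid list, with adjusted p of 0.107 and 0.144. In the cutin and suberin list 9 of the 11 had higher and 2 lower estimates, with a median log2 fold change of 0.14 and 20 of 31 estimates above 0. Its 51 genes summed to 427 to 511 FPKM in DN50 and 519.6 to 646 in GmRAV1-ox, without overlap. The polyamine list did not overlap either, in the other direction, at 881 to 981 FPKM in DN50 and 752 to 839 in GmRAV1-ox. The sums of the remaining lists overlapped. The smallest p of the cutin and suberin list belonged to genes with lower estimates, Glyma13g02250.1, a glycerol-3-phosphate acyltransferase (2.93 ± 1.15 and 0.660 ± 0.275 CPM), and Glyma05g09060.1, a P450 of the 86B1 class (96.8 ± 14.8 and 41.6 ± 19.1), at adjusted p of 0.0992 and 0.115 by edgeR. Without GmRAV1-ox replicate 3, 47 genes of the 6 lists were lower and 30 higher of 234 tested (32.9%, against 18.3% of all genes).

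**Figure D5:**
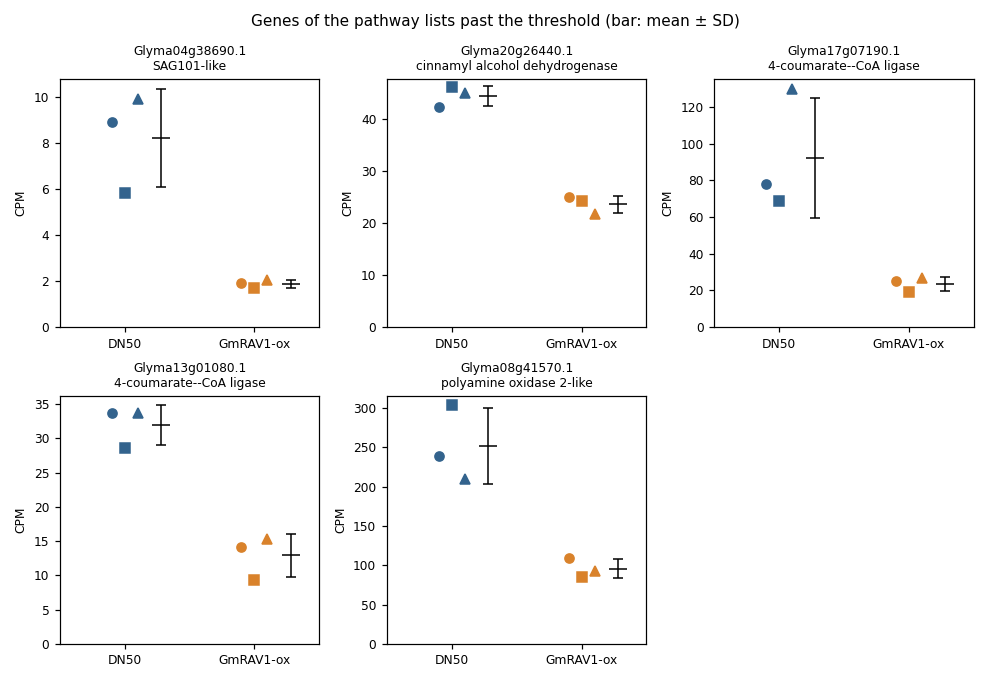
CPM by library for the 5 genes of the pathway lists that passed the test, with mean ± SD of 3 libraries per group. In each panel the 3 GmRAV1-ox libraries lie below the 3 DN50 libraries.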

How the data were processed

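Per the file headers, each library table lists coding lengths, expected counts (estimated counts per gene, as deposited) and FPKM values made by the authors. Between 29.6% and 30.5% of the deposited counts were not whole. The tools listed per the submitters' processing notes are TopHat and Cufflinks. The genome build and annotation are not given in the sources consulted. Unlisted genes were set to 0 and counts rounded. In R 4.3.3, edgeR 4.0.16 (filterByExpr, TMM, robust quasi-likelihood F test, 2-sided, Benjamini-Hochberg adjustment over all 26272 tested genes, threshold 0.05) compared the groups without a replicate block. Printed intervals cover 95%, from each gene's fitted log2 fold change and standard error. CPM values are library-scaled with TMM factors (0.849 to 1.17) and 3 libraries per group enter each mean ± SD. Alternatives were DESeq2 1.42.0, limma 3.58.1 on log2(FPKM + 1) or log2(FPKM + 0.1), other scalings and filters, a replicate block and each library left out. Scripts were tested on simulated data. Members, lists and the naming rule (members past the threshold, the 10 smallest p, the most abundant overall and by role, neighbours of members past the threshold, and the leading genes of each list) were chosen with earlier results of these data known. Members outside the rule were named after their values were seen. No sequences were used here. No samples were left out.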

Additional observations from a re-analysis of the deposited data

How the results depend on the processing

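The 3 members called were 3 with pairs that share reads summed (chosen after seeing the data), 2 to 4 in the other scalings, filters and limma fits, 5 with DESeq2 (1781 of all genes), 7 with the replicate block (1621 of all genes), and 0 to 12 with 1 library left out (0 to 5055 of all genes, 184 with all 6). Same-numbered libraries did not deviate together in every pair (correlations -0.30, 0.40 and 0.30 for numbers 1 to 3), so the numbers are not taken as pairs. All genes called came to 293 with no count filter, 74 by limma on log2(FPKM + 0.1) and 11 by limma without an FPKM filter. The 5 genes called in the pathway lists came to 34 with DESeq2, 31 with the replicate block, 2 by limma on log2(FPKM + 1), 1 with the smaller pseudocount, 0 with no FPKM filter, and 0 to 77 with 1 library left out. The members' median log2 fold change of -0.20 over the 37 tested came to -0.0170 without scaling factors, and to -0.24 to -0.09 with 1 library left out. It came to 0.0604 with DESeq2, 0.0480 with no count filter, 0.0775 by limma without an FPKM filter and -0.0575 by limma on log2(FPKM + 1). Each median was taken over all members in its fit, which need not be the same 37. DESeq2 and the fits without a filter also held members with too few counts for the main test. Gene set and method thus changed together there, and their parts were not tested. For the 37 tested members, 516 of the alternative values kept direction and side of the threshold, 17 lost a call (3 members), 17 gained one (10 members) and 33 changed sign (9 members, none of them called under any alternative). The replicate block also called Glyma05g38290.1 (adjusted p 0.00723 by edgeR, up to 0.739 over the alternatives). The sign changed for Glyma02g00340.1 (0.0124 by limma at a pseudocount of 1, with and without a filter, 0.0156 at 0.1, 0.0183 without GmRAV1-ox replicate 3, 0.26 without DN50 replicate 2, and -0.647 to 0.26 with 1 library left out) and Glyma16g26650.1 (-0.11 and -0.08 without DN50 replicates 1 and 3, and -0.33 without GmRAV1-ox replicate 1, in a range of -0.33 to 0.405), and also for Glyma01g27810.1, Glyma03g14210.1, Glyma10g06870.1, Glyma10g06990.1, Glyma13g44830.1, Glyma19g03770.1 and Glyma19g40900.1. Of the members, 33 had too few counts for the main test. The alternatives that kept any of them called none of them, and at such low counts differences could be missed.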
